A study of Mus musculus with 24 samples.

Results

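This account describes the mouse liver after 8 weeks of an ethanol diet without a binge, set against the liver of pair-fed mice. Samples were chosen by their titles, which gave 5 ethanol-fed and 4 pair-fed livers, 9 of the 24 samples of the series. All were livers of male C57BL/6N mice, an inbred strain. Pair feeding gives control animals a diet without ethanol in amounts matched to what the ethanol-fed animals eat. The labels give no genetic change, drug or age for either group. Another group from the same scan had 8 weeks of ethanol followed by a single binge of 5 g of ethanol per kg (n = 5). Its values are given only for the genes that differed between the first groups, for Cidec and for counts of genes called. On each array the liver was in the Cy5 channel and a common reference in the Cy3 channel, with 1 Agilent 2-colour array per sample. The reference is named as a commercial mouse total RNA, and its tissues are not settled by the labels. Each value is therefore a log2 ratio of a transcript in the liver to the same transcript in the reference, and levels of different genes cannot be compared. The labels do not say that the replicates came from separate animals, so a p-value speaks only of the spread among these 9 samples and the others fitted with them.

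Ethanol taken up with the diet is oxidised in hepatocytes by alcohol dehydrogenases and, at high load, by the cytochrome P450 enzyme CYP2E1, and the acetaldehyde formed is cleared by aldehyde dehydrogenases. Hepatocytes also carry large families of other P450 enzymes and glutathione transferases, which modify drugs, steroids and reactive lipids and are set by nuclear receptors such as CAR and PXR and by the sex-dependent pulses of growth hormone. Chronic ethanol feeding of rodents is a standard model of the early, fat-laden stage of alcoholic liver disease. A binge on top of the diet is used to add injury and inflammation.

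Of 15664 genes tested, 24 were called, that is, had a Benjamini-Hochberg adjusted p under 0.05 in a limma fit of all 6 groups (0.153%). Expression was higher after ethanol in 10 of them (0.0638%) and lower in 14 (0.0894%). At least 2-fold differences were found for 5 of the raised genes, Cyp2b9, Cyp2b13, Cyp2c29, Depp1 and Cyp3a16, and for 5 of the lowered genes, Gadd45g, Plk3, Slc10a2, Dct and Coq10b. At an unadjusted p under 0.05 there were 483 higher genes (3.08%) and 658 lower genes (4.2%), together 1141 (7.28%). The values of the groups did not overlap in 745 genes (4.76%) and in 22 of the 24 called genes, Bud13 and Tnfaip2 being the others. The median log2 fold change of all genes was 0.0061. Leaving out 1 array at a time, the count was 5 without pair-fed replicate 2, 6 without pair-fed replicate 3, 12 without ethanol replicate 2 and 8 without ethanol replicate 3. It was 12 with median centring in place of loess, 14 in the Cy5 channel alone (4 higher, 10 lower), 21 with the slide as a block (12 higher, 9 lower), and 85 with array weights. Of the 24 genes, 10 lost their call with the slide as a block, 14 with median centring and 12 in Cy5 alone. A fit of these 2 groups alone called 20 genes, of which 8 were among the 24, and a fit of the 3 groups of this scan called 9, of which 7 were. Cyp2b9, Dct and Gadd45g passed whichever array was left out, Gadd45g losing its call in the fits of 2 and 3 groups, and the other 21 lost their call without at least 1 array. A further 28 genes differed at least 2-fold without being called.

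**Figure D1:**
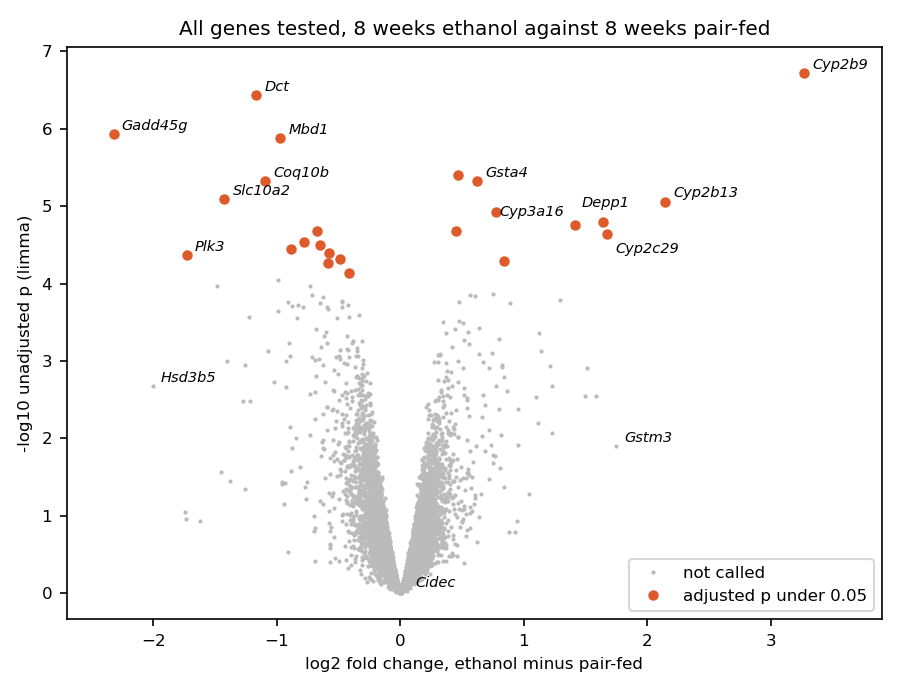
Each point is a gene, placed by its log2 fold change (ethanol minus pair-fed) on the x axis and by -log10 of its unadjusted limma p on the y axis, with the 24 called genes in orange. Of the called genes Cyp2b9 lies farthest to the right at 3.27 and Gadd45g farthest to the left at -2.32, while Cidec, which was not called, lies near 0.

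The scanner software marked 2.25% to 6.9% of the spots of an array. Median Cy5 intensity lay between 125 and 247 units, 70.7% to 83.8% of spots were well above background, and 0 spots were saturated. Across genes, which are not independent replicates, the median correlation of log2 ratios was 0.657 among pair-fed arrays, 0.757 among ethanol arrays and 0.68 from 1 group to the other. Hepatocyte markers were present as the label says: all 11 tested, of a list of 15 with Alb and Apob, were above background on all 9 arrays, and 0 were called or had an unadjusted p under 0.05. Of 127 tested genes on all lists of cell type markers 2 were called, Slc10a2, listed for cholangiocytes, and Dct, listed for melanocytes. In RNA from whole tissue, fewer cells of a type and less RNA per cell cannot be told apart. A slide holds several arrays: 4 slides held 1 array of each group, and the slide of ethanol replicate 1 held no pair-fed sample. Values with the slide as a block are given where they change the call of a gene.

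**Figure D2:**
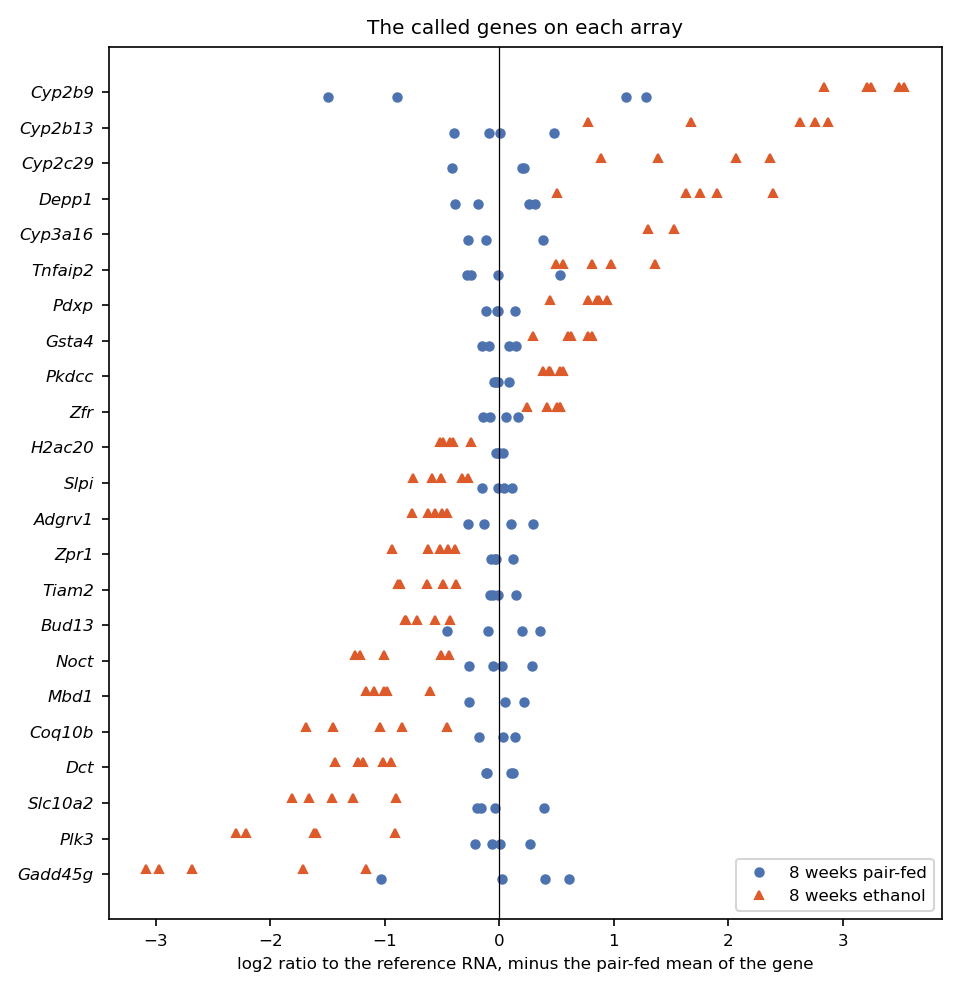
Of the 24 called genes 23, 1 per row, with the value of each pair-fed array (blue circles) and each ethanol array (orange triangles) on the x axis as log2 ratio minus the pair-fed mean of that gene. The groups are apart in all genes shown but Bud13 and Tnfaip2, where 1 pair-fed array of Bud13 and 1 of Tnfaip2 lie within the range of the ethanol arrays.

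The largest rise among the called genes, on the probes used, was that of Cyp2b9, a hepatic P450 enzyme of the Cyp2b family, whose members oxidise drugs and steroids and are known targets of CAR. The log2 ratio of Cyp2b9 was -1.56, -4.35, -3.74 and -1.73 on the pair-fed arrays and -0.0052, 0.64, 0.40, 0.37 and 0.69 on the ethanol arrays. Every ethanol array lay above every pair-fed array, and the spread was in the pair-fed group, where replicates 2 and 3 were far below replicates 1 and 4. The difference was 3.27 ± 0.42 (log2 fold change ± SE, adjusted p = 0.00285), a 9.62-fold rise. Its neighbour Cyp2b13 measured -0.95, -1.42, -1.82 and -1.51 in pair-fed livers and -0.65, 1.45, 0.25, 1.20 and 1.33 after ethanol, with ethanol replicate 1 closest to the controls. The rise of Cyp2b13 was 2.14 ± 0.37 (adjusted p = 0.0152), or 4.42-fold. Without pair-fed replicate 2 or 3, or ethanol replicate 2, Cyp2b13 was no longer called (highest adjusted p = 0.0896), nor was it in Cy5 alone or in the fits of 2 or 3 groups. Second probes gave 1.97 for Cyp2b9 and, with spots kept that the scanner software had marked as uneven or outlying, 3.94 for Cyp2b13, so the order of these genes turns with the probe. The second probe of Cyp2b9 had unmarked values on 2 ethanol arrays, and that of Cyp2b13 on 0 ethanol arrays and 1 pair-fed array.

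Cyp2b9 and Cyp2b13 lie next to each other among the genes tested on chromosome 7, and their promoter windows are nearly the same letters, which is why both are shown. The windows are the 300 bases around the annotated start in RefSeq (GRCm38.p6, plus strand), chr7:26173159-26173458 for Cyp2b9 and chr7:26061245-26061544 for Cyp2b13. Capitals mark the positions at which they differ.
Cyp2b9: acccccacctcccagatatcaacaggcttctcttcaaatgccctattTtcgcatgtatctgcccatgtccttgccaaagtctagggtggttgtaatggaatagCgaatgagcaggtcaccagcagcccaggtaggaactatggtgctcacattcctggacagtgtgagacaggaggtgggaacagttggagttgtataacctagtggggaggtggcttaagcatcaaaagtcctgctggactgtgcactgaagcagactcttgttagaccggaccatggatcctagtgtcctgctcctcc
Cyp2b13: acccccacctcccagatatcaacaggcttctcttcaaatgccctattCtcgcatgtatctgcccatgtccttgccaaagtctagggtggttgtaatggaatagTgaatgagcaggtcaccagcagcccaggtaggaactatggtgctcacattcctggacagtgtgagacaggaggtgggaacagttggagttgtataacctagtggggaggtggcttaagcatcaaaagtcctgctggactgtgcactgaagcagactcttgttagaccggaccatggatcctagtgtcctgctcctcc
The windows differ at 2 of 300 positions and are identical at 99.3%. Counted from 1 at the 5′ end, with the base of Cyp2b9 first, the differences are T48C and C104T. Both windows hold 1 match to AGGTCA, a core motif of many nuclear receptor sites, with both strands searched. It is held by 16.3% of the 32851 promoter windows of the table and by 7 of the 20 called genes with a window. The transcripts of such close relatives can share signal on a probe, so the share of each gene in these values is uncertain.

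No other Cyp2b gene or regulator on the list passed. Cyp2b10, the member best known for induction through CAR, had 1.04 ± 0.50 (adjusted p = 0.686), and 2.72 in the authors' deposited values (adjusted p = 0.0688). Its probe was above background on 5 of 5 ethanol arrays but on 1 of 4 pair-fed arrays, so the size of the difference is uncertain. The receptor CAR itself, Nr1i3, had 0.54 ± 0.23 (adjusted p = 0.611). Of the list of Cyp2b genes and receptors, 8 of 9 were tested, 2 were called higher and 0 lower, and the median was 0.40 against 0.0061 for all genes. The other tested members of the family, Cyp2b19 and Cyp2b23, had 0.013 ± 0.12 and 0.046 ± 0.17.

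In the Cyp2c family, which metabolises drugs and fatty acids, Cyp2c29 rose. It was measured on 3 pair-fed arrays at -1.71, -1.09 and -1.08 and on 4 ethanol arrays at -0.40, 1.07, 0.091 and 0.78, with no overlap. The rise was 1.68 ± 0.30 (adjusted p = 0.0239), 3.2-fold, and blocking on the slide gave 1.62 (adjusted p = 0.14). It was 1.06 in Cy5 alone (adjusted p = 0.1), and the call was also lost without any 1 of 5 arrays (pair-fed replicates 2 and 3, ethanol replicates 2, 3 and 5). Nor was Cyp2c29 called in the fits of 2 or 3 groups, with the replicate block or on the scanner software's ratios. Cyp2c54 had 1.23 ± 0.41 (adjusted p = 0.409). Cyp2c39 had 1.12 ± 0.27 (adjusted p = 0.111) and was called with marked spots kept (1.27, adjusted p = 0.0206). Cyp2c38 had 0.46 ± 0.18 (adjusted p = 0.529). Of the list of 15 Cyp2c genes 8 were tested, 1 was called, and the median was 0.25.

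Cyp3a16, a member of the P450 family that oxidises steroids, bile acids and many drugs, was measured on few arrays, since its spots on the others were marked. Its log2 ratio was -1.25, -1.09 and -0.60 on 3 pair-fed arrays and 0.32 and 0.54 on 2 ethanol arrays. The difference was 1.41 ± 0.23 (adjusted p = 0.0225; 1.38 and 0.0838 with the slide as a block). Cyp3a41a had 1.23 ± 0.34 (adjusted p = 0.224; 1.75 and 0.0437 with the slide as a block). The call of Cyp3a16 was lost without pair-fed replicate 2 or 3, with scale normalization and in Cy5 alone. It was also lost in the fits of 2 or 3 groups, on the deposited values and on the scanner software's ratios (highest adjusted p = 0.142). Where marked spots were kept and the probe was chosen again, an alternative added after the data had been seen, which called 43 of 16140 genes (0.266%), 6 of the 9 Cyp3a genes could be tested and 4 were called higher. These were Cyp3a16 (1.33, adjusted p = 0.0401), Cyp3a11, the main hepatic Cyp3a gene of mice (1.27, adjusted p = 0.0306), Cyp3a44 (1.27, adjusted p = 0.0401) and Cyp3a41a (1.25, adjusted p = 0.0401). Cyp3a44 measured 0.082 ± 0.13 with the probe used otherwise, so its probes disagree. Transcripts of these relatives can share signal on a probe. The closely related Cyp2a4 and Cyp2a5, which hydroxylate steroids and coumarin, had 1.50 ± 0.45 and 1.59 ± 0.47 (adjusted p = 0.249 for both). Both passed when the slide was a block (1.84, adjusted p = 0.0259, and 1.98, adjusted p = 0.0261). Over all 26 alternatives Cyp2a4 went down to 1.04 and Cyp2a5 to 1.09, with highest adjusted p-values of 0.924 and 0.774. The 3 tested Cyp2a genes had a median of 1.04 in Cy5 alone and of -0.46 in the Cy3 channel of the reference.

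**Figure D3:**
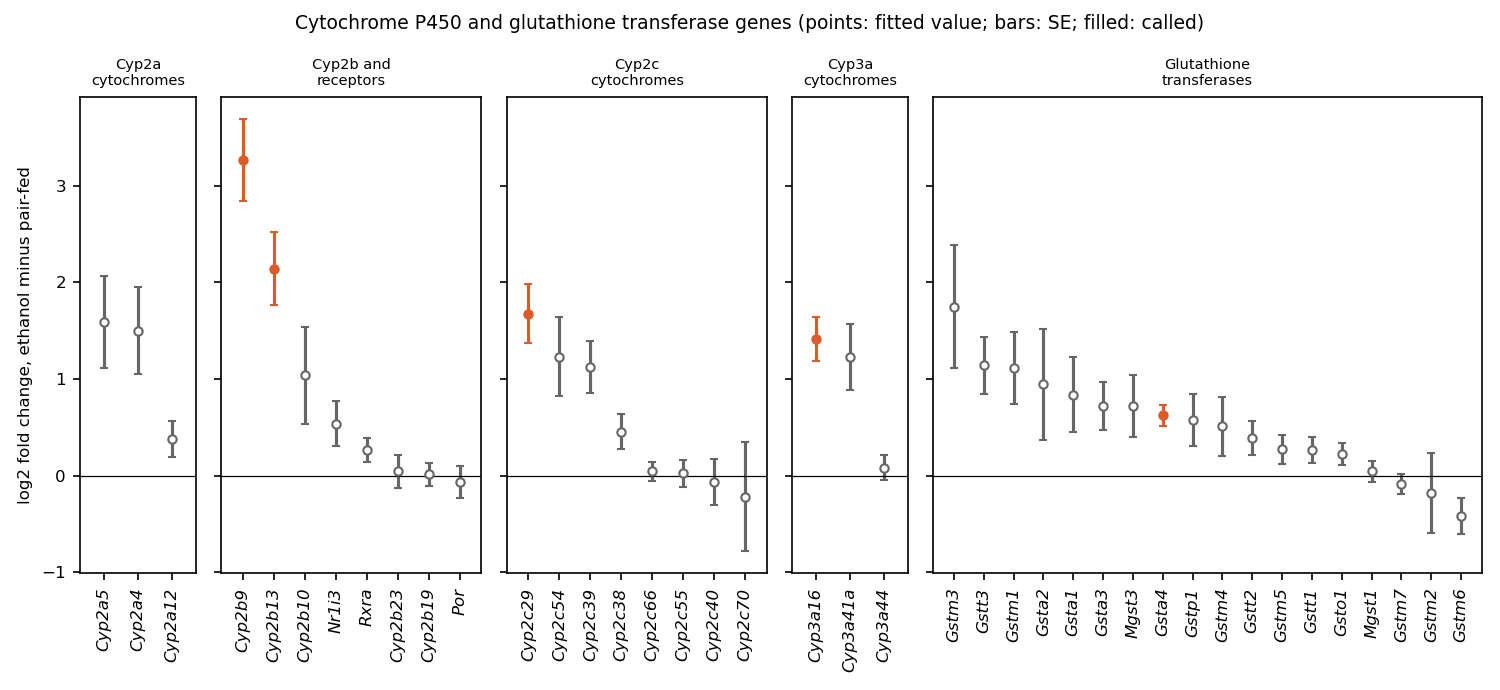
Log2 fold change (ethanol minus pair-fed, y axis) with its SE for every tested gene of the P450 families 2A, 2B (with CAR and its partners), 2C and 3A and of the glutathione transferases, sorted within each panel. Filled orange points are the called genes Cyp2b9, Cyp2b13, Cyp2c29, Cyp3a16 and Gsta4.

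Glutathione transferases couple glutathione to reactive molecules. Gsta4, which acts on the lipid peroxidation product 4-hydroxynonenal, measured 0.042, -0.13, -0.19 and 0.10 in pair-fed livers and 0.56, 0.77, 0.59, 0.25 and 0.74 after ethanol. All ethanol arrays were above all pair-fed arrays, and Gsta4 rose by 0.62 ± 0.10 (adjusted p = 0.0107), 1.54-fold. The call was lost without pair-fed replicate 2 or 3, with scale normalization, with the replicate block, in the fits of 2 or 3 groups and with median centring (highest adjusted p = 0.459). Of 18 tested members of the family, 15 had a value above 0 and 9 had an unadjusted p under 0.05 in the higher direction, while Gsta4 alone was called. The median was 0.54 against 0.0061 for all genes. The largest values belonged to Gstm3 (1.75 ± 0.64, adjusted p = 0.473, measured on 2 pair-fed arrays, and 1.15 with marked spots kept), Gstt3 (1.14 ± 0.29, adjusted p = 0.143) and Gstm1 (1.12 ± 0.37, adjusted p = 0.363). Gstm6 lay on the other side at -0.42 ± 0.19 (adjusted p = 0.618).

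Glutathione synthesis and the other targets of NRF2, the sensor of oxidative stress, had 0 called genes of 16 tested by limma, 2 with an unadjusted p under 0.05, both higher, and a median of 0.15. The lowest p-values in that list were those of Gpx1, a glutathione peroxidase, at 0.41 ± 0.13 (adjusted p = 0.318), and of Gss, glutathione synthetase, at 0.24 ± 0.11 (adjusted p = 0.626).

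The raised genes Cyp2b9, Cyp2b13 and Cyp3a16 are known for higher expression in female than in male mouse liver. These animals were male. Of 15 tested genes of a list of female-predominant liver genes, these 3 were called higher and 0 lower, and the list's median was 0.10. Among 12 tested male-predominant genes 0 were called, 2 higher and 3 lower ones had an unadjusted p under 0.05, and the list had a median of -0.031. The lowest value there was that of Hsd3b5, a male steroid dehydrogenase, at -2.00 ± 0.58 (adjusted p = 0.225). Its pair-fed arrays gave 0.54, 1.65, 1.16 and 0.67 and its ethanol arrays -2.84, -2.29, -0.43, -0.59 and 1.15, so the groups overlapped at ethanol replicate 5. Without that array Hsd3b5 was called (-2.54, adjusted p = 0.0424). It was not called in the other 25 alternatives (values up to -1.54, highest adjusted p = 0.596). The complement gene C6 had -1.26 ± 0.33 (adjusted p = 0.162, 2 pair-fed arrays) and was called with marked spots kept (-1.30, adjusted p = 0.0299). Cish, which growth hormone induces through STAT5, had -1.21 ± 0.37 (adjusted p = 0.263), with 0 of 13 tested genes of the growth hormone axis called and 2, both lower, at an unadjusted p under 0.05.

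The largest falls among the called genes were those of Gadd45g and Plk3, which act in the response of cells to stress. Gadd45g, a growth arrest gene, measured 0.35, 0.94, 0.73 and -0.71 in pair-fed livers and -1.38, -2.35, -2.75, -2.64 and -0.83 after ethanol. Pair-fed replicate 4 was the lowest control and lay just above ethanol replicate 5, the highest ethanol array, so the groups did not overlap. The difference was -2.32 ± 0.36 (adjusted p = 0.00511), a 4.99-fold fall, and Gadd45g was lower after ethanol on 4 of 4 slides with both groups. The fit of the 2 groups alone gave it an adjusted p of 0.0561 and that of the 3 groups 0.0684. Plk3, a stress-responsive polo-like kinase, gave 0.38, 0.17, 0.65 and 0.31 in pair-fed livers and -1.24, -1.92, -1.83, -1.22 and -0.53 after ethanol. No arrays overlapped, and the difference was -1.73 ± 0.34 (adjusted p = 0.0335; -1.82 and 0.072 with the slide as a block), a 3.31-fold fall. Plk3 kept its call without ethanol replicate 5 and lost it without any 1 of the other 8 arrays (highest adjusted p = 0.15). It was also not called with median centring, scale normalization or the replicate block, on the scanner software's ratios or on the deposited values.

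Relatives of these genes had values near 0: Gadd45a had 0.086 ± 0.17, Gadd45b 0.19 ± 0.19 and Plk2 0.052 ± 0.11, with adjusted p from 0.93 to 0.975. The value of Gadd45a was -0.078 in the Cy5 channel alone. Of 21 tested genes of the growth arrest and p53 list, Gadd45g and Plk3 were called lower and 0 higher, and the median was -0.13. Of 21 immediate early genes, which respond within minutes to stimuli, 0 were called, 2 had an unadjusted p under 0.05, 17 lay below 0 and the median was -0.12. Dusp1, a phosphatase of MAP kinases, had -1.23 ± 0.29 (adjusted p = 0.0836) without overlap between groups, and Klf4, a transcription factor, -0.53 ± 0.18 (adjusted p = 0.381).

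The promoter windows of Gadd45g and Plk3 are shown because these genes fell most. In RefSeq (GRCm38.p6) they lie at chr13:51846425-51846724 on the plus strand and chr4:117133914-117134213 on the minus strand. In Gadd45g, capitals mark 1 match to TATAAA and 1 to CACGTG, the E-box. In Plk3, capitals mark 2 matches to TGACG, the core of sites bound by CREB and ATF factors. Both strands were searched, and the motifs were chosen after the values had been seen.
Gadd45g: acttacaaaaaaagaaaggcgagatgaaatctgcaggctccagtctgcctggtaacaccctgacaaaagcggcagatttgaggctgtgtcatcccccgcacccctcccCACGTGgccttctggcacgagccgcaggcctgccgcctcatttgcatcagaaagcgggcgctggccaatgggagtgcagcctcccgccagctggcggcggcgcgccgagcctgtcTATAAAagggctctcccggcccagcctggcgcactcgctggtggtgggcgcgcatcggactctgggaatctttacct
Plk3: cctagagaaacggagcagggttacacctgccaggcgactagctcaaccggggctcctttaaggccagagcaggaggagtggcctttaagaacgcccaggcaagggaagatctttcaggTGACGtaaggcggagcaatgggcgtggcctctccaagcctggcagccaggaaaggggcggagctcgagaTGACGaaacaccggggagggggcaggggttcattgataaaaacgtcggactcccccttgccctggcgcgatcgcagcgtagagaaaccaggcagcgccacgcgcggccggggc
TATAAA occurred in 13.6% of all windows and in 4 of the 20 called genes that have one, CACGTG in 7.15% and 3 of 20, and TGACG in 20.8% and 4 of 20. The share of called genes with TGACG is near that of all windows. A match describes letters and is not a site in use.

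Cytosolic heat shock genes, which encode protein-folding chaperones, had 0 called members of 21 tested and 5 with an unadjusted p under 0.05, all lower, with a median of -0.045. Hspa1a, the inducible HSP70, measured -0.04, 0.72 and -0.34 on 3 pair-fed arrays and -0.76, -0.65, -0.81, -0.69 and -0.68 on the ethanol arrays, without overlap. Its value was -0.83 ± 0.19 (adjusted p = 0.0836). With marked spots kept and its brightest probe used instead, Hspa1a was -1.23 (adjusted p = 0.0016) and was called. A further Hspa1a probe was well above background on 0 of 5 ethanol arrays and on 4 of 4 pair-fed arrays, and in the Cy5 channel it was at least 2.44-fold lower after ethanol. This bound sets the pair-fed mean against the mean of the lowest signals well above background on the ethanol arrays. The last Hspa1a probe, above background on 2 of 5 ethanol and 3 of 4 pair-fed arrays, gave -0.88, a size that is uncertain at such a signal. The gene was also called without pair-fed replicate 4 (-1.06, adjusted p = 0.0329), and over the 26 alternatives its adjusted p went up to 0.578. Hspa1b, a near copy, can share this signal. The co-chaperone Dnajb1 had -0.44 ± 0.13 (adjusted p = 0.245).

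Slc10a2, the sodium-dependent bile acid transporter of ileum and bile ducts, fell. It measured -0.11, -0.23, 0.32 and -0.27 in pair-fed livers and -0.98, -1.53, -1.73, -1.88 and -1.35 after ethanol, and every ethanol array was lower. The difference was -1.42 ± 0.25 (adjusted p = 0.0152), a 2.68-fold fall, and a second probe gave -1.37 with marked spots kept. The call was lost without pair-fed replicate 2 or 3 or ethanol replicate 3 (highest adjusted p = 0.0929). The other 10 tested cholangiocyte markers, such as Krt7 and Krt19, lay between -0.24 and 0.19, with 0 called, and 10 of 10 were above background on every array. Their mean log2 ratio over the 7 measured throughout was -0.18 to 0.021 on pair-fed arrays and -0.13 to 0.049 on ethanol arrays. Of 20 tested genes of bile acid synthesis and transport Slc10a2 was the 1 called, and the median was 0.034. Nr0b2, the repressor SHP, had 0.77 ± 0.22 (adjusted p = 0.224) and the efflux pump Abcc3 0.74 ± 0.19 (adjusted p = 0.151).

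Depp1, a target of FoxO factors that is raised by fasting, rose after ethanol. Pair-fed arrays gave -0.15, -0.64, -0.85 and -0.20 and ethanol arrays 0.043, 1.29, 1.44, 1.93 and 1.17; ethanol replicate 1 lay close to the controls and the other 4 far above. The rise was 1.64 ± 0.30 (adjusted p = 0.0225), 3.11-fold. The call was lost without any 1 of 5 arrays (pair-fed replicates 2 and 3, ethanol replicates 2, 3 and 4) and in the fits of 2 or 3 groups. Depp1 was also not called on the deposited values, on the scanner software's ratios or with the replicate block. Of 18 tested genes of the fasting, FoxO and glucocorticoid list, Depp1 was the 1 called, 12 lay below 0 and the median was -0.11. Fkbp5, a glucocorticoid target, had -0.66 ± 0.17 (adjusted p = 0.156) and Klf15 -0.54 ± 0.17 (adjusted p = 0.296).

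Noct, which encodes the clock-controlled phosphatase nocturnin, measured 0.90, 0.55, 0.63 and 0.35 in pair-fed and -0.61, 0.10, -0.39, -0.65 and 0.17 in ethanol livers. It fell by 0.88 on the log2 scale (SE 0.17, adjusted p = 0.0312; 0.072 with the slide as a block). Of 17 tested genes of the clock and its output 0 were called and 5 had an unadjusted p under 0.05, all lower, with a median of -0.05. The lowest p-values belonged to Nr1d1, the repressor REV-ERB alpha, at -0.87 ± 0.20 (adjusted p = 0.0709; 0.0179 without ethanol replicate 4), and Dbp, a clock output factor, at -1.07 ± 0.27 (adjusted p = 0.143). Over the 26 alternatives the adjusted p of Nr1d1 went up to 0.721. The call of Noct was lost without any 1 of 6 arrays, and pair-fed replicate 4 and ethanol replicates 2 and 5 were the exceptions. Noct was also not called with median centring, scale normalization, no background correction or the replicate block. The same held in the fits of 2 or 3 groups, on the scanner software's ratios and on the deposited values.

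Coq10b, a mitochondrial protein that binds coenzyme Q, measured 1.06, 0.75 and 0.96 on 3 pair-fed arrays and -0.76, -0.53, -0.11, 0.074 and 0.47 after ethanol. The ethanol arrays were spread widely but all were lower, and the difference was -1.10 ± 0.18 (adjusted p = 0.0107), a 2.14-fold fall. It was not called without pair-fed replicate 2, with median centring, with scale normalization, or in the fits of 2 or 3 groups (adjusted p from 0.0936 to 0.127). Its 2 other probes gave -0.65 and -0.85. Of 23 tested genes of coenzyme Q and the respiratory chain Coq10b was the 1 called; the median was 0.0048, and the coenzyme Q kinase-like gene Coq8a had 0.37 ± 0.30 (adjusted p = 0.906). The promoter window of Coq10b (RefSeq, GRCm38.p6, chr1:55052520-55052819, plus strand) is shown for its 4 matches to TGACG, in capitals and here read on the opposite strand as CGTCA.
Coq10b: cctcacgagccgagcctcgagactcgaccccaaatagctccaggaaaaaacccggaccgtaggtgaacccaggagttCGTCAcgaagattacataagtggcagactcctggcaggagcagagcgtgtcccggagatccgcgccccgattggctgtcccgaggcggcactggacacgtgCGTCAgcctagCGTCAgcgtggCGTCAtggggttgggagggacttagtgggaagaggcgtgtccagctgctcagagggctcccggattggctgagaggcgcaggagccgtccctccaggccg

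Zpr1, a zinc finger protein of growing cells, and Bud13, a splicing factor, lie next to each other among the genes tested on chromosome 9, and both fell. Zpr1 measured 0.42, 0.26, 0.27 and 0.23 in pair-fed and -0.32, -0.64, -0.16, -0.23 and -0.092 in ethanol livers, a fall of 0.58 on the log2 scale (SE 0.12, adjusted p = 0.0369). A second Zpr1 probe gave -0.84. Bud13 measured 0.58, 0.29, 0.74 and -0.072 and -0.046, -0.18, -0.43, -0.43 and -0.33, with pair-fed replicate 4 below ethanol replicate 1, and fell by 0.67 (SE 0.13, adjusted p = 0.0236). Blocking on the slide gave them adjusted p-values of 0.0673 and 0.105, and each lost its call without any 1 of at least 5 arrays. Neither was called with median centring, in Cy5 alone, in the fits of 2 or 3 groups, on the scanner software's ratios or on the deposited values. Cyp2b9 with Cyp2b13 and Zpr1 with Bud13 were the only pairs of called genes with 0 tested genes between them.

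Dct, an enzyme of melanin synthesis, measured 0.55, 0.55, 0.78 and 0.76 in pair-fed livers and -0.53, -0.29, -0.58, -0.36 and -0.78 after ethanol, with a wide gap between the groups. The difference was -1.17 ± 0.17 (adjusted p = 0.00285), a 2.24-fold fall, and Dct and Cyp2b9 were the 2 genes called under all 26 alternatives tried. Its second probe, above background on 3 of 5 ethanol arrays, gave 0.042, so the probes disagree, and their mean gave -0.56. The other 9 tested markers of melanocytes and pancreas lay between -0.054 and 0.22, with 0 called, and 7 of 9 were above background on every array.

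Mbd1, which binds methylated DNA, measured 0.29, 0.46 and -0.025 on 3 pair-fed arrays and -0.85, -0.92, -0.74, -0.77 and -0.37 after ethanol, a fall of 0.97 on the log2 scale (SE 0.15, adjusted p = 0.00511), and its second probe gave -0.51. Mbd1 lost its call without pair-fed replicate 3 and with median centring (highest adjusted p = 0.0957). The guanine nucleotide exchange factor Tiam2 fell by 0.65 (SE 0.13, adjusted p = 0.029), and by 1.15 in the scanner software's own ratios (adjusted p = 0.115).

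Among the smaller falls, Slpi, a protease inhibitor, went from 0.48 ± 0.11 (SD, n = 4) to -0.0061 ± 0.20 (SD, n = 5) (adjusted p = 0.0359; with the slide as a block 0.072). The Cy5 channel alone gave -0.13 for Slpi, its second probe -0.024 and the scanner software's ratios -0.86. The large adhesion receptor gene Adgrv1 fell by 0.58 (SE 0.11, adjusted p = 0.0329; with the slide as a block 0.0557), but its 4 probes gave -1.27, -0.58, -0.015 and 0.13. The histone gene H2ac20 fell by 0.41 (SE 0.086, adjusted p = 0.048), from 0.32 ± 0.027 (SD, n = 4) to -0.10 ± 0.11 (SD, n = 5). Related histone copies can share its signal. Tiam2, Slpi, Adgrv1 and H2ac20 each lost their call without any 1 of at least 5 arrays.

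The smaller rises were in genes of varied function. Pdxp, which dephosphorylates vitamin B6, measured -0.023, -0.27, -0.17 and -0.17 in pair-fed livers and 0.28, 0.61, 0.70, 0.78 and 0.71 after ethanol, a rise of 0.78 ± 0.14 (adjusted p = 0.0188). Tnfaip2, a gene induced by TNF, rose by 0.84 ± 0.17 (adjusted p = 0.0369; with the slide as a block 0.141). It was higher on 3 of 4 slides with both groups, and the pair-fed array at -0.54 lay within the ethanol range of -0.58 to 0.29. The secreted kinase gene Pkdcc rose from -0.42 ± 0.061 (SD, n = 4) to 0.047 ± 0.071 (SD, n = 5) (adjusted p = 0.0107). Pkdcc was not called without pair-fed replicate 3, with median centring or in Cy5 alone (highest adjusted p = 0.907). Zfr, an RNA-binding zinc finger protein, rose by 0.45 ± 0.085 (adjusted p = 0.0236), and its other probes gave 0.19 and 0.23. Pdxp, Tnfaip2 and Zfr lost their calls without any 1 of 4, 7 and 6 arrays. None of them was called on the scanner software's ratios or on the deposited values. In Cy5 alone Pdxp and Zfr were not called, nor was Zfr with the mean of its probes.

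Enzymes that oxidise alcohol and acetaldehyde had 0 called genes of 13 tested, 4 with an unadjusted p under 0.05 (3 higher, 1 lower), 10 above 0 and a median of 0.10. Adh1, the main hepatic alcohol dehydrogenase, measured -0.27, -0.33 and -0.13 on 3 pair-fed arrays and 0.76, 0.55, 0.40, 0.40 and 0.40 after ethanol, without overlap, and had 0.75 ± 0.16 (adjusted p = 0.0709). With marked spots kept it was 0.71 (adjusted p = 0.0435) and was called. Aldh1a1, a retinal dehydrogenase, had 0.95 ± 0.29 (adjusted p = 0.297, 2 pair-fed arrays). Cyp2e1, named here for its known role and not for its value, had 0.22 ± 0.18 (adjusted p = 0.914).

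Of the lists on fat storage, synthesis and oxidation 0 genes were called, and at most 3 genes a list had an unadjusted p under 0.05. Cidec, the lipid droplet gene in the title of the series, measured -0.73, -2.91, -2.51 and -1.83 in pair-fed and -0.93, -3.14, -1.92, -1.99 and -1.73 in ethanol livers, and the difference was 0.053 ± 0.64 (adjusted p = 0.998). Its sign turned without pair-fed replicate 2 or 3 or ethanol replicate 1, so these arrays show no direction. Of 14 tested lipid droplet genes 12 lay above 0, with a median of 0.16, and Hsd17b11 had 0.35 ± 0.10 (adjusted p = 0.249). Pparg, the nuclear receptor of fat storage, had 0.47 ± 0.11 (adjusted p = 0.0709) without overlap, and the fatty acid receptor Cd36 0.51 ± 0.22 (adjusted p = 0.611). In the list of triglyceride synthesis and breakdown, 18 genes were tested, and G0s2, an inhibitor of the lipase ATGL, had 1.51 ± 0.40 (adjusted p = 0.165, 2 pair-fed arrays), but 0.62 with marked spots kept. The carboxylesterase Ces1d had 0.86 ± 0.25 (adjusted p = 0.24). De novo fatty acid synthesis had a median of -0.19 over 12 tested genes, Elovl5 having -0.93 ± 0.26 (adjusted p = 0.226). Fatty acid oxidation had a median of 0.0042 over 21 genes.

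Of the lists on inflammation and injury 1 gene was called, Tnfaip2, of 23 tested in the list of TNF, IL-1 and NF-kB targets. Acute phase genes ranged from -1.74 to 0.24 over 19 tested, with a median of -0.16, 0 called and 2 at an unadjusted p under 0.05, both lower; the iron hormone gene Hamp had -1.45 ± 0.62 (adjusted p = 0.594) and Apcs -0.96 ± 0.43 (adjusted p = 0.626). Interferon-stimulated genes had a median of -0.13 over 22, with 3 at an unadjusted p under 0.05. Irf7 had -0.60 ± 0.15 (adjusted p = 0.11, with 0.0329 without pair-fed replicate 4 and up to 0.637 over the 26 alternatives). Chemokines, extracellular matrix, cell death and autophagy each had 0 called genes and 0 to 4 at an unadjusted p under 0.05, with medians from -0.095 to 0.018. In the list of DNA replication and mitosis, Pcna had -0.30 ± 0.079 (adjusted p = 0.156) and Rrm2 -0.44 ± 0.13 (adjusted p = 0.212), and neither passed. Of 17 tested endoplasmic reticulum stress genes 0 were called, 12 lay below 0 and the median was -0.15. The highest value of that list was that of Atf4, at 0.40 ± 0.16 (adjusted p = 0.564). In amino acid catabolism Got1 had -1.40 ± 0.33 (adjusted p = 0.157, 2 pair-fed arrays) and Prodh 0.47 ± 0.17 (adjusted p = 0.434), and 0 of 16 passed.

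**Figure D4:**
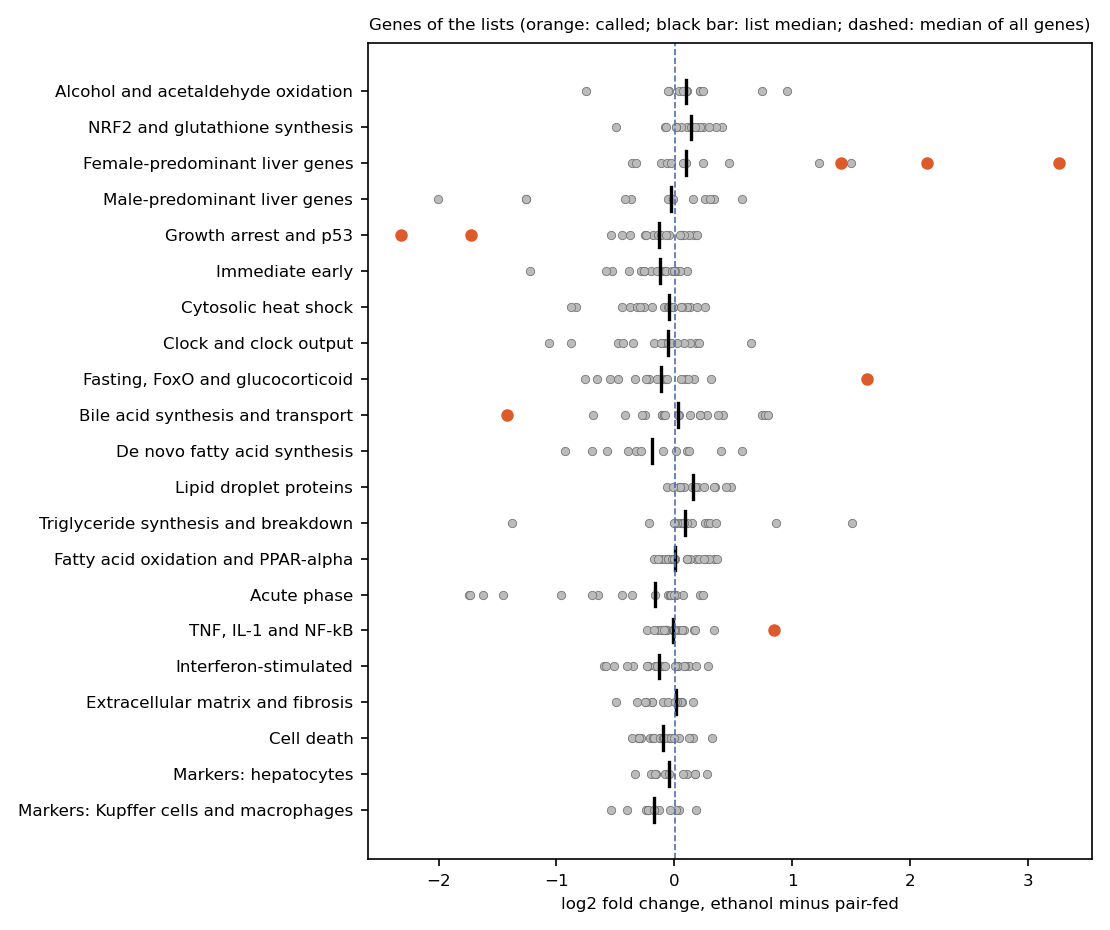
Log2 fold change (x axis, ethanol minus pair-fed) of each tested gene of 21 lists (rows), with called genes in orange, the list median as a black bar and the median of all genes as a dashed line. List medians lie near 0, while single genes such as Gadd45g and Depp1 stand far from the rest of their lists.

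Markers of cells other than hepatocytes had 0 called genes besides Slc10a2 and Dct. The 13 tested markers of Kupffer cells and macrophages had 0 called, 10 below 0 and a median of -0.17; the mean of the 12 measured throughout was -0.22 to 0.38 on pair-fed and -0.21 to 0.031 on ethanol arrays. Mpeg1 of macrophages had -0.53 ± 0.16 (adjusted p = 0.24) and Pecam1 of endothelium -0.30 ± 0.09 (adjusted p = 0.249). Rgs5 of pericytes and stellate cells had -0.39 ± 0.10 (adjusted p = 0.131) and the neutrophil granule gene Camp 0.31 ± 0.13 (adjusted p = 0.593). These genes were named for a low p within their lists. List medians were -0.069 for endothelium (4 of 15 above 0) and -0.094 for stellate cells and fibroblasts (4 of 15 above 0). The neutrophil list had a median of 0.030, with 8 of 12 above 0 and 4 below. Of the erythroid genes, Alas2 had -0.62 ± 0.20 (adjusted p = 0.323) and the transferrin receptor Tfrc 0.37 ± 0.10 (adjusted p = 0.196).

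The called genes were then set beside the livers that had a single binge after the same 8 weeks of ethanol. That comparison called 2603 of 15830 genes (16.4%), and binge against pair-fed called 2566 of 15713 (16.3%). The first shares the 5 ethanol arrays and the second the 4 pair-fed arrays with the comparison above, so these values are not independent of those already given. Gadd45g was 1.34, -0.39, 0.089, 0.51 and -0.14 on the binge arrays, which is 2.27 ± 0.34 against ethanol alone (adjusted p = 4.87e-05) and -0.049 against pair-fed mice (adjusted p = 0.953). Slc10a2 was 0.63, -0.17, -0.013, 0.033 and 0.52 after the binge, 1.69 ± 0.24 against ethanol alone (adjusted p = 2.43e-05) and 0.27 against pair-fed (adjusted p = 0.537). Both lay within the pair-fed range or above it on all 5 binge arrays. Plk3 and Mbd1 also rose against ethanol alone, by 1.46 ± 0.32 (adjusted p = 0.00249) and 0.57 ± 0.13 (adjusted p = 0.00292).

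Depp1 fell by 2.02 on the log2 scale against ethanol alone (SE 0.29, adjusted p = 2.74e-05), to -0.84 ± 0.50 (SD, n = 5) on the binge arrays. Pdxp fell by 1.09 (adjusted p = 5.38e-06), Cyp3a16 by 1.40 (adjusted p = 5.58e-04) and Cyp2b13 by 1.08 (adjusted p = 0.038). Noct and Coq10b, already low, were lower again with the binge, by 0.71 (adjusted p = 0.00341) and 0.62 (adjusted p = 0.00804).

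For the remaining 14 called genes the binge against ethanol alone did not pass, with values from -0.62 to 0.22. Cyp2b9 was 0.02, 0.27, -0.77, 0.49 and 0.32 on the binge arrays, -0.36 ± 0.40 against ethanol alone (adjusted p = 0.66) and 2.91 against pair-fed mice (adjusted p = 7.24e-05). Dct was -0.83, -0.90, -0.59, -0.17 and -0.43 and Gsta4 0.36, 0.79, 0.56, 0.39 and 0.51 on the same arrays, which is -1.25 (adjusted p = 1.67e-05) and 0.56 (adjusted p = 5.53e-04) against pair-fed. The neighbours Zpr1 and Bud13 were -0.69 (adjusted p = 2.47e-04) and -0.72 (adjusted p = 3.15e-04) against pair-fed mice after the binge. Cidec measured 1.25 ± 0.68 (SD, n = 5) after the binge, 3.19 ± 0.60 against ethanol alone (adjusted p = 5.58e-04). With median centring the binge against ethanol alone called 829 higher and 501 lower genes, against 1274 and 1329 with loess.

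**Figure D5:**
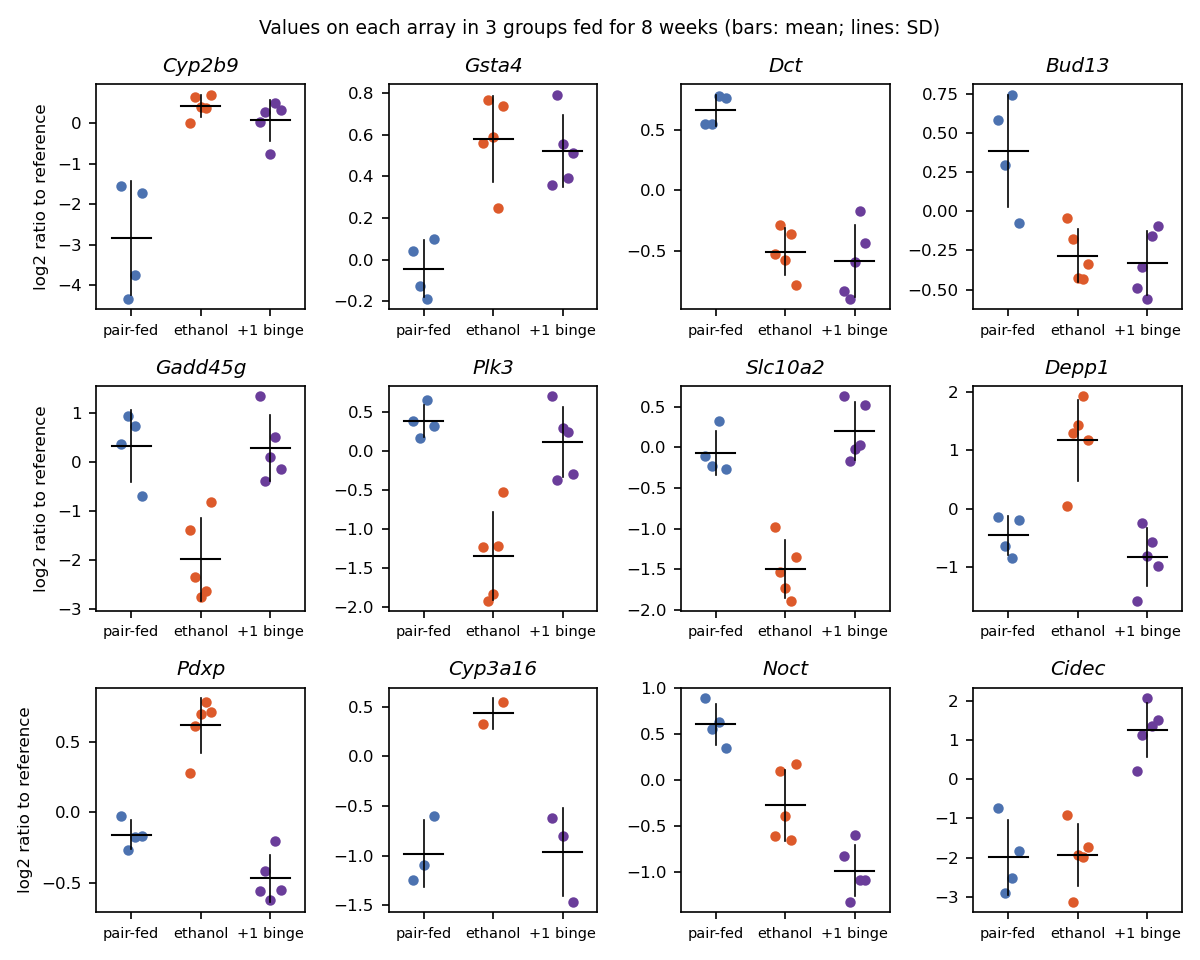
Log2 ratio to the reference (y axis, own scale per gene) of 12 genes on each array of the pair-fed, ethanol and ethanol plus 1 binge groups, with the mean (bar) and SD (line). Gadd45g, Plk3 and Slc10a2 have their lowest mean in the ethanol group and Depp1, Pdxp and Cyp3a16 their highest, while the means of Cyp2b9 in both ethanol groups lie above that of the pair-fed group.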

How the data were processed

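Mouse liver samples, 24 in 6 groups, were profiled on Agilent 2-colour arrays, of which 9 are described here. The authors deposited, per the file headers, 1 scanner file per array with spot intensity and a log10 ratio of Cy5 to Cy3 made by Agilent Feature Extraction 11.5.1.1, and a value table that matched this ratio on a log2 scale, uncentred and with liver over reference (column medians from -0.088 to 0.073). The authors' test is not given in the sources used here.

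Median spot intensities were corrected with normexp (offset 50) and normalized by loess within arrays in limma 3.58.1 (R 4.3.3). Spots marked in the scanner files as non-uniform or population outliers were left out, and spots of 1 probe were averaged. Values of Cy5 alone were rebuilt from the loess-normalized ratios and the average intensities, quantile normalized between arrays. They thus depend on both channels. A minimum of 3 arrays with a Cy5 signal well above background kept 36620 of 41174 probes, and 22944 of those matched exactly 1 gene by accession (GRCm38.p6 table, names only). Each gene was represented by its brightest probe among those with values on 2 or more arrays in each group. Where no probe of a gene had such values, its brightest probe was used. A limma fit of 6 groups over 24 arrays was adjusted by Benjamini-Hochberg, and an adjusted p under 0.05 was a call. The scripts were tested on simulated data. The number of arrays limits the precision, and 0 pairs of arrays held identical values.

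The members, gene lists and tests were chosen with earlier results of these data known. Named were all called genes, Cidec, up to 4 called and 2 other genes with the lowest p of each of 46 lists, and relatives in the Cyp2b, Cyp2c, Cyp3a, glutathione transferase, Gadd45 and Plk families. Of the list genes, 66 were not tested for marked spots, 13 for dim signal and 51 because no probe was matched. Of the 24 called genes, 1 is counted but not reported here. Alternatives covered normalization, background, marked spots, the filter on dim probes, the probe rule, the samples fitted, slide and replicate blocks, array weights, and each array left out.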

Additional observations from a re-analysis of the deposited data

Results flagged for a closer look

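Of 139 pairs of a gene and a group checked, 4 held an array far from the others by Dixon's test, and chance alone picks about 1 in 20. Cyp2c39 was at -1.51 in pair-fed replicate 2, where the other pair-fed arrays lay between -0.72 and -0.63. Nr0b2 was at -0.18 in ethanol replicate 1, against 0.45 to 0.53 on the other ethanol arrays. Atf4 was at 0.26 in ethanol replicate 2, against 0.044 to 0.075. Alas2 was at 0.81 in pair-fed replicate 4, against 0.48 to 0.53. None of these genes was called.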

How the results depend on the processing

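The count of 24 genes called after ethanol was 12 with median centring, 11 on the log ratio of the scanner software, 13 on the deposited table, 14 in Cy5 alone, 41 with marked spots kept, 9 in the 3 groups of one scan, 41 with the slide as a random block and 85 with array weights. It was 43 with marked spots kept and the probe chosen again, an alternative added after the data had been seen, and 23 of the 24 were among those. Leaving out 1 array at a time gave 5 to 32 genes, the lowest without pair-fed replicate 2. The cause was not tested in these cases. None of the 24 genes changed direction under any of 26 alternatives. Of 57 other named genes, 17 passed under at least 1 of them.

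For same-numbered arrays, deviations from the group means correlated at -0.106 for number 1 and at 0.131, 0.115 and 0.237 for numbers 2 to 4. The last 3 pairs share a slide, as do pair-fed replicate 1 and ethanol replicate 5 (0.199). Pairs on different slides ranged from -0.26 (pair-fed replicate 4 with ethanol replicate 1) to 0.24 (pair-fed replicate 2 with ethanol replicate 1). Whether arrays pair by number or by slide was not tested. The slide block called 21 genes, 14 of them among the 24. With the replicate block 11 genes were called, all among the 24. The replicate block turned Cidec to -0.0039. With 1 array left out Cidec ranged from -0.25 to 0.48, turning without pair-fed replicate 2 or 3 or ethanol replicate 1, and Cyp3a44 from -0.015 to 0.15, turning without pair-fed replicate 2 or ethanol replicate 5. Gadd45a was -0.078 in Cy5 alone and -0.036 to 0.17 with 1 array left out, turning without pair-fed replicate 4. The count of 2603 for the added binge was 1330 with median centring and 1388 in Cy5 alone, and 2164 to 2740 with 1 array left out. Low signal limits Cyp2b10, whose probe was above background on 1 of 4 pair-fed arrays.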
